A study of Homo sapiens with 9 samples.

Results

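Pseudopodia, the processes that migrating cells push forward, were compared with whole cells of the same line across all genes. The line was hTERT-MSC, human mesenchymal stem cells from adipose tissue immortalised with telomerase. The members were chosen by label and not by any measured value: 3 pseudopodia libraries and 3 whole cell libraries, which are 6 of the 9 in the series. The other 3, from cell bodies, enter the fit for the spread and are given beside the results. All 9 carry the treatment label PDGF-BB. The genotype field of the labels holds only the fraction, and no allele is named. Starved cells sat on uncoated membranes with pores of 3 µm for 2 h and then met 50 ng/mL of this growth factor from below for 1 h. Pseudopodia were scraped from the lower face of the membrane, and cell bodies afterwards from the upper face. The labels name the whole cell libraries with no account of how those cells were collected, nor do they say that replicates came from separate cultures. All p-values below therefore rest on the spread of these samples alone, part of which may be technical. One immortalised line stands for the cell type here. Fraction and handling cannot be told apart in the comparison with whole cells. Below, rose and fell mean higher or lower in pseudopodia than in whole cell, not a change over time.

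A cell that moves toward a growth factor sends out a process rich in actin, anchors it through integrins and their plaque proteins, and then pulls its body after it. Some mRNAs travel into such processes on microtubules, carried by kinesin motors and held by RNA-binding proteins, and are translated there. Other transcripts stay near the nucleus, among them mRNAs translated on the rough endoplasmic reticulum and RNAs retained in the nucleus. PDGF-BB acts through the receptor tyrosine kinases PDGFRA and PDGFRB and, through MAP kinase, switches on early genes such as FOS and EGR1 within minutes.

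Pseudopodia libraries held 59148161 to 77166197 counts and whole cell libraries 57233895 to 83894938. The replicate spread, as a biological coefficient of variation, was 33.0% in pseudopodia, 17.6% in cell bodies and 5.08% in whole cells. Pseudopodia replicates 2 and 3 stood apart from each other: across 18675 genes their departure from the group mean followed GC content with Pearson r of -0.60 and 0.61, against -0.19 for replicate 1 and -0.11 to 0.10 for the libraries of the other groups. Within a group of 3 the deviations add up to 0, which ties the signs together, and genes are not independent replicates. In bulk RNA, fewer cells with a transcript and fewer transcripts in each cell cannot be told apart.

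Of 19426 genes tested, 5412 were higher in pseudopodia, 27.9% of them, and 6430 were lower, 33.1% (edgeR's quasi-likelihood test, Benjamini-Hochberg adjusted p under 0.05, the call used throughout). At least 2-fold differences were found for 2824 of the higher and 4793 of the lower genes, and at least 8-fold differences for 260 and 1114. The median log2 fold change of all genes, pseudopodia minus whole cell, was -0.12, which is the level to read the lists below against. With a correction for GC content and transcript length the split turned to 6672 higher and 5759 lower, 53.7% higher against 45.7%, and the median moved up by 0.18. On log2(TPM + 1) it was 3229 and 9686, with the median down by 0.22, or by 0.44 with 0.1 added. Deposited TPM were the same counts with 1 length per gene and 1 constant per library, without TMM factors. Genes well above the added value therefore move by a like amount on this scale, and lists that turn on it share that move. Counts of the lists are therefore given under the correction and on log2(TPM + 1) too. Both counts are given where the majority turned to the other direction under either of them. Elsewhere mostly a single alternative is given, chiefly where a count of at least 10 moved by over 1.5 times. Of the 199 genes named in the text, the GC and length correction moved the fold change of 64 by over 1.5 times, 55 of them to a smaller size, and log2(TPM + 1) that of 51, 47 of them to a smaller size. Log2 fold changes under the correction are given at the end of a paragraph for most genes it moved that far.

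**Figure D1:**
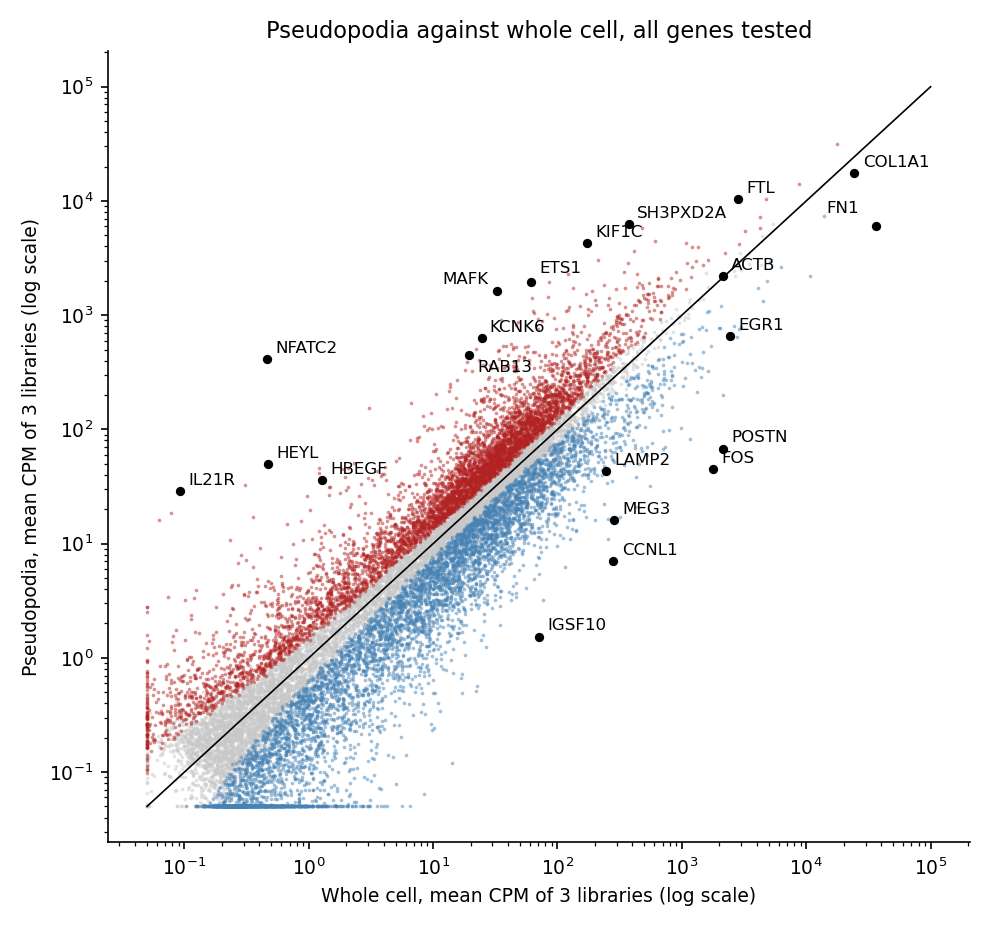
Mean CPM (counts scaled to a common library total with TMM factors) of each tested gene in whole cell (x axis, log scale, 3 libraries) and pseudopodia (y axis, log scale, 3 libraries), on a display floor of 0.05 CPM. Red points are the 5412 genes called higher and blue points the 6430 called lower in pseudopodia; the diagonal marks equal levels and the labelled genes are described in the text.

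The label of the line was checked against markers of mesenchymal stem cells and fibroblasts, all 16 of which passed the expression filter. Their summed CPM was 5981 ± 806 in pseudopodia (SD, n = 3), 9959.7 in cell bodies and 7998 ± 193 in whole cells. Vimentin (VIM), the intermediate filament of mesenchymal cells, had 3090.0, 2908 and 1413 CPM in the 3 pseudopodia libraries and 2809.9, 3205 and 2903 in the whole cell libraries; these overlapped, with pseudopodia replicate 3 lowest, and the log2 fold change was -0.27 ± 0.252 (adjusted p = 0.379), 0.02 without that library and -0.81 on log2(TPM + 1) (limma, adjusted p = 0.0287). 3 markers rose and 9 fell. Nestin (NES) rose by a log2 fold change of 2.11, and FAP, a surface protease of activated fibroblasts, fell to 34.0 ± 21.1 from 252 ± 1.41 CPM (-2.89 ± 0.484, SE). The receptor PDGFRB, at 867, 820.2 and 1149.9 against 1142, 1098 and 1141 CPM, was not called (log2 fold change -0.25 ± 0.161, adjusted p = 0.194), though it was lower without pseudopodia replicate 3 (-0.41, adjusted p = 0.0194) and after the GC and length correction (-0.74, adjusted p = 1.45e-05). The other PDGF receptor gene, PDGFRA, named after its values were seen, fell with 162, 186 and 119 against 581, 557 and 577 CPM and no overlap (-1.88). FAP stood at -2.02 after the GC and length correction.

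The largest gains in share of all counts, which depend on transcript length as well as number, went to MT-CO1, FTL, SH3PXD2A, CCDC80, EEF1A1, MAP4K4, KIF1C, MAP4, DDR2 and CAVIN1. SH3PXD2A encodes the podosome scaffold TKS5. It had 6126, 5496 and 7170.0 CPM in pseudopodia, 192, 325 and 324 in cell bodies and 392, 357 and 375 in whole cells, so the pseudopodia stood alone and the cell bodies lay below the whole cells (4.06 ± 0.216, adjusted p = 1.49e-07). MAP4K4, a kinase of the Ste20 family, and MAP4, a microtubule-binding protein, were likewise high in pseudopodia alone, with log2 fold changes of 3.58 and 2.89. FTL, the light chain of the iron store ferritin, had 10163, 8734 and 12452 CPM in pseudopodia, 4097, 3917 and 3807 in cell bodies and 2633, 3015 and 2772 in whole cells, with all 3 groups apart from each other (1.90). CCDC80 stood at 2.04 and DDR2 at 4.08 after the GC and length correction.

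The largest losses went to fibronectin (FN1), COL3A1, COL1A1, COL1A2, COL6A1, LRP1, TGFBI, THBS1, FSTL1 and COL12A1, of which LRP1 is an endocytic receptor and the rest are secreted. FN1 had 6245, 5801 and 6226 CPM in pseudopodia, 21443, 38497 and 33763 in cell bodies and 37663, 34622 and 37561 in whole cells. Its pseudopodia libraries lay within a narrow band far below both other groups (-2.59 ± 0.194, adjusted p = 1.31e-06). COL3A1 had 2670.3, 2224 and 1765 against 10705, 10474 and 10831 CPM (-2.26). COL1A1, the main chain of collagen I, fell least, from 24384 ± 609 to 17405 ± 2773 CPM (-0.49 ± 0.146, adjusted p = 0.0136), and was not called without whole cell replicate 1 (adjusted p = 0.05004). FN1 stood at -1.61, COL1A1 at -1.11 and COL1A2 at -0.26 after the GC and length correction.

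The highest fold changes among genes with at least 20 CPM in the higher group, a symbol and groups that did not overlap went to NFATC2, IL21R, DCLK3, HEYL, MAFK, PGF, S1PR5, ETS1, HBEGF, LINC00511, MAFF and KCNK6. NFATC2 encodes a transcription factor that calcineurin moves into the nucleus. It had 369, 458 and 417 CPM in pseudopodia and 86.7, 163 and 127 in cell body, but 0.479, 0.365 and 0.533 in whole cell, a log2 fold change of 9.81 ± 0.311 (adjusted p = 1.20e-08). The gene was thus near absent from whole cells while both scraped fractions held it. MAFK, a small MAF factor, had 1599, 1369 and 1953 CPM in pseudopodia, 114, 109 and 108 in cell bodies and 32.3, 32.0 and 33.5 in whole cells, and ETS1, the founding ETS factor, 1797, 2000.1 and 2088 CPM in pseudopodia, 347, 485 and 524 in cell bodies and 61.0, 60.6 and 63.7 in whole cells. Both stood in steps from whole cell over cell body to pseudopodia, at 5.65 ± 0.166 and 4.99 ± 0.181 against whole cell. Whole cells hold both parts, so a level above whole cell in both scraped fractions does not measure place within the cell alone. The same holds for a level below whole cell in both.

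**Figure D2:**
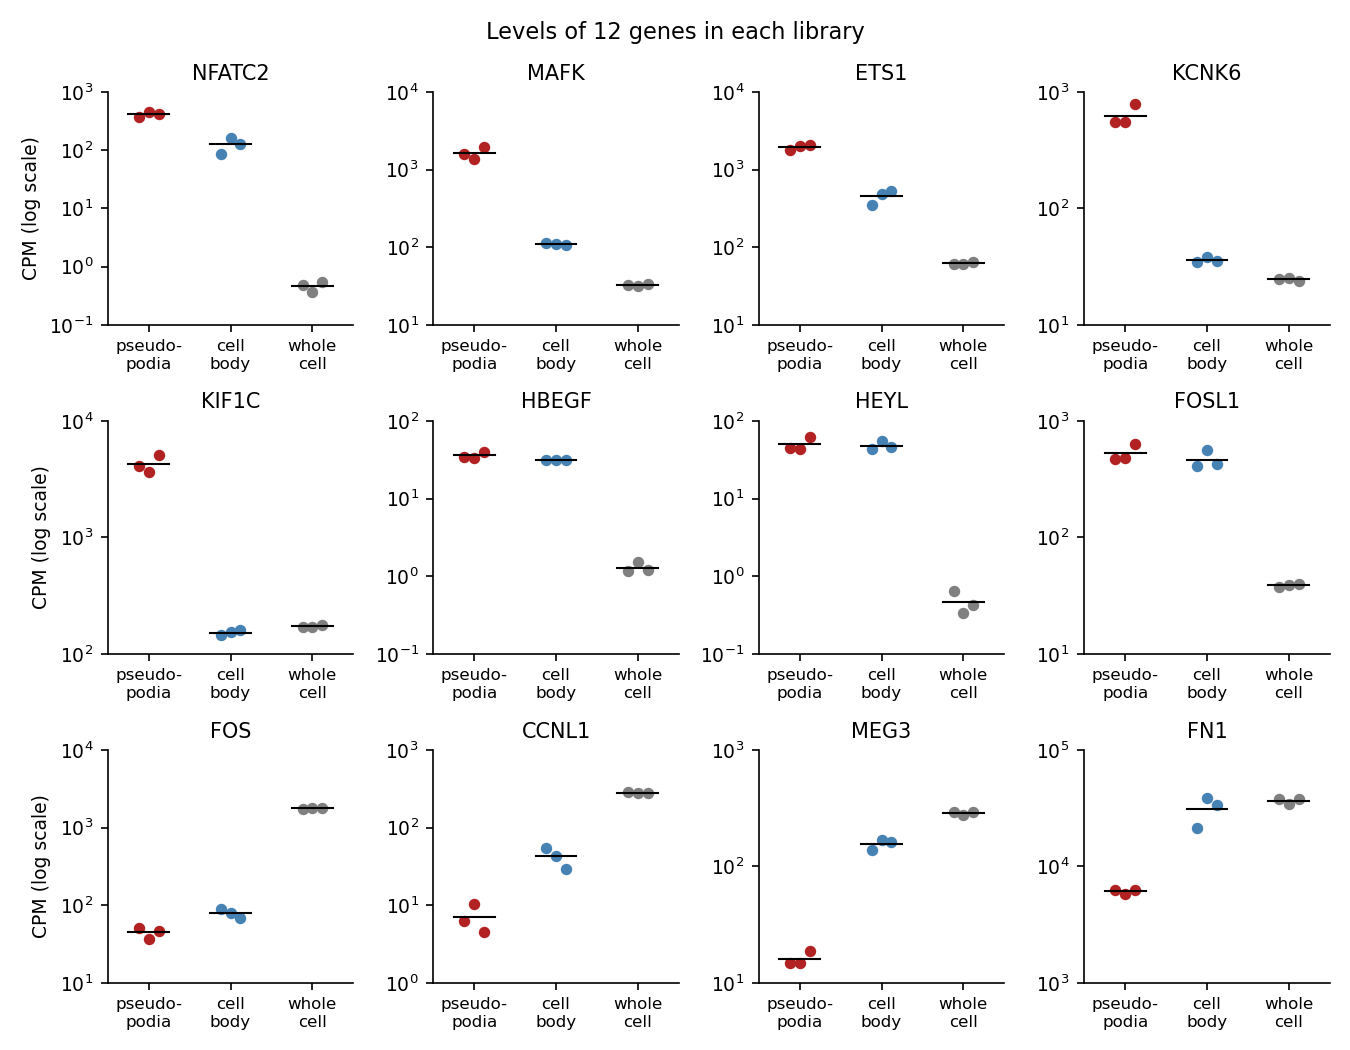
CPM (y axis, log scale) of 12 genes in each library of pseudopodia, cell body and whole cell; each point is 1 library and the bar is the mean of 3. KCNK6 and KIF1C stand out in pseudopodia alone, HBEGF and HEYL are high in both scraped fractions, FOS is high in whole cell alone, and MEG3 falls in steps from whole cell to pseudopodia.

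Another pattern within the same list was a level shared by both scraped fractions. HBEGF, a membrane-bound ligand of the EGF receptor, had 34.8, 33.0 and 40.4 CPM in pseudopodia, 31.4, 31.7 and 31.7 in cell bodies and 1.17, 1.50 and 1.19 in whole cells. HEYL, a Notch target, had 44.2, 43.7 and 61.6 CPM in pseudopodia, 43.9, 54.9 and 45.9 in cell bodies and 0.653, 0.335 and 0.420 in whole cells. The ranges of pseudopodia and cell body met or nearly met for both genes, and the log2 difference between these groups was 0.19 (adjusted p = 0.306) for HBEGF and 0.05 (0.876) for HEYL, in a comparison in which 38.5% of all genes were called. The growth factor gene PGF, the sphingosine 1-phosphate receptor S1PR5 and LINC00511 had 46.0, 41.9 and 26.4 CPM in pseudopodia, 42.3, 29.6 and 24.0 in cell body and 1.22, 1.20 and 0.973 in whole cell. KCNK6, a potassium channel gene, was the opposite case: 550.5, 548 and 781 CPM in pseudopodia, with 34.8, 38.0 and 35.6 in cell body close to the 24.5, 25.3 and 23.6 in whole cell (4.68 ± 0.171). Cell body was called apart from whole cell in 38.6% of genes. The contrasts share libraries, so they are read side by side and not as separate support.

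The lowest fold changes by the same rule went to IGSF10, CCNL1, FOS, TTC14, POSTN, RSRP1, ABI3BP, ANGPT1, ADM, VCAN, ASPN and MEG3. CCNL1 encodes a cyclin of nuclear speckles, where splicing factors gather. It had 6.17, 10.2 and 4.57 CPM in pseudopodia, 54.9, 43.3 and 29.6 in cell bodies and 287, 277 and 283 in whole cells (-5.33 ± 0.347, adjusted p = 1.95e-06). VCAN, the large matrix proteoglycan versican, had 13.3, 24.7 and 13.3 against 332, 297 and 324 CPM (-4.21), and ADM, the vasodilator peptide adrenomedullin, 24.5, 17.6 and 20.2 against 417, 446 and 419.6 (-4.36). In each of these the cell body lay between. For 4 genes the size hung on pseudopodia replicate 2, which was the highest of the group: without it the log2 fold change was -6.22 in place of -5.28 for TTC14, -5.98 in place of -4.97 for POSTN, -5.42 in place of -4.40 for ANGPT1 and -5.26 in place of -4.18 for ASPN. CCNL1 stood at -3.96, VCAN at -3.40, IGSF10 at -4.61, POSTN at -4.15, TTC14 at -4.01, ANGPT1 at -3.25 and ASPN at -3.05 after the GC and length correction.

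On GRCh38, by GENCODE release 29, NFATC2 (ENSG00000101096) lies on chromosome 20 at 51386957 to 51562831, MAFK (ENSG00000198517) on chromosome 7 at 1530714 to 1543043, ETS1 (ENSG00000134954) on chromosome 11 at 128458761 to 128587558 and KIF1C (ENSG00000129250) on chromosome 17 at 4997948 to 5028401. FOS (ENSG00000170345) lies on chromosome 14 at 75278774 to 75282230, CCNL1 (ENSG00000163660) on chromosome 3 at 157146508 to 157160760 and FN1 (ENSG00000115414) on chromosome 2 at 215360440 to 215436172. These code for proteins. MEG3 (ENSG00000214548), the gene of a long non-coding RNA, is found on chromosome 14 at 100779410 to 100861031. All counts are per gene, not per exon or transcript.

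A list of mRNAs known or shown by these data to lie in protrusions rose as a whole: all 10 members were higher, with a median log2 fold change of 3.60, and CYB5R3, named after its value was seen, rose least (0.42, adjusted p = 0.0255; -0.06 and not called on log2(TPM + 1), and adjusted p = 0.0696 and 0.0767 without whole cell replicate 1 or 3). Members were in part picked from these libraries, so their direction is no independent evidence. RAB13, a small GTPase and the textbook example of such an mRNA, had 503, 423 and 421 CPM in pseudopodia, 22.9, 19.9 and 18.2 in cell bodies and 18.1, 19.4 and 20.8 in whole cells (4.53 ± 0.152, adjusted p = 1.20e-08). KIF1C, the kinesin known to carry such mRNAs outward, had 4131, 3612 and 5134 CPM in pseudopodia, 144, 153 and 159 in cell bodies and 170.5, 169 and 178 in whole cells (4.64). TRAK2, a motor adaptor of mitochondria, had 1398, 1393 and 1512 CPM in pseudopodia, 48.3, 54.6 and 65.6 in cell bodies and 85.6, 79.8 and 84.3 in whole cells (4.11). In all 3 genes the cell body was as low as the whole cell or lower, and every pseudopodia library was more than 10-fold above either.

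Of 22 kinesin genes tested, 14 rose and 3 fell (median 1.22), and 12 and 0 did after the GC and length correction. After KIF1C the highest were KIF3B, a subunit of the heterotrimeric kinesin-2 motor (55.1 to 531 CPM, 3.27), and KIF26B (2.69), while KIF3A, the partner of KIF3B in that motor, fell from 14.0 to 4.67 CPM (-1.58), a call that the correction ended (-0.55, adjusted p = 0.0570). Of 27 genes of dynein, dynactin and their cargo adaptors, 12 rose and 6 fell. These were 8 and 11 on log2(TPM + 1) and 14 and 5 after the GC and length correction. Besides TRAK2, the light intermediate chain DYNC1LI2 (2.82) and the light chain DYNLL2 (2.51) rose most, and the adaptor HOOK3 fell most (-2.29). Microtubule plus-end genes split 8 higher and 3 lower of 21, 6 and 7 on log2(TPM + 1) and 12 and 2 after that correction. MAP4 (609.6, 590.1 and 619 CPM in whole cell and 4194, 4074 and 5199 in pseudopodia), CLIP2 (2.53) and KANK2 (2.30) led them. RNA-binding proteins that localise mRNA were 9 higher and 6 lower of 25. They were 4 and 11 on log2(TPM + 1), 13 and 4 after that correction and 7 each under upper-quartile factors. CPEB2 (1.40) and CPEB4 (1.30), which bind cytoplasmic polyadenylation elements, rose and IGF2BP3 (-1.67) and TIA1 (-2.20) fell. TIA1 stood at -0.90, IGF2BP3 at -0.90, HOOK3 at -1.02 and CPEB4 at 2.44 after the GC and length correction.

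Podosome scaffolds were 9 higher and 3 lower of 19 (median 0.41), 7 and 6 on log2(TPM + 1) and 11 and 2 after the GC and length correction. After SH3PXD2A these were led by the kinase SRC (1.69) and by SH3PXD2B, which encodes TKS4 (1.31). The collagenase MMP14, which podosomes and invadopodia display, fell (814, 793 and 829.6 CPM in whole cell and 305, 278 and 385 in pseudopodia, -1.33), as did the docking protein GAB1 (-1.96). Actin nucleators and crosslinkers were 27 higher and 5 lower of 54. The count turned to 15 and 18 on log2(TPM + 1) and was 36 and 7 after the GC and length correction. CORO1C, a coronin of the leading edge, rose from 171 ± 2.32 to 1525 ± 82.7 CPM (3.16 ± 0.125), followed by the formins DIAPH1 (1.91) and FMNL3 (1.62), and DIAPH2 fell (-1.73). ACTB itself, whose mRNA is the classic localised transcript of fibroblasts, had 2157, 1874 and 2557 CPM in pseudopodia and 2032, 2211 and 2130.1 in whole cell. These ranges overlapped, and the log2 fold change was 0.05 ± 0.131 (adjusted p = 0.769) but -0.07 without pseudopodia replicate 3, -0.14 after the GC and length correction and -0.42 on log2(TPM + 1), where it was called lower (limma, adjusted p = 0.00447). GAB1 stood at -0.73 and DIAPH2 at -0.59 after the GC and length correction.

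Integrins, the receptors that tie the cytoskeleton to the matrix, went the other way: 1 of 17 rose and 12 fell (median -1.73). The one that rose was ITGA5, the fibronectin receptor subunit, with 593, 601 and 920.3 CPM in pseudopodia, 843, 1097 and 1044 in cell bodies and 339, 342 and 335 in whole cells (1.06 ± 0.178, adjusted p = 3.99e-04). Pseudopodia and whole cell did not overlap, and all 3 cell body libraries lay above 2 of the 3 pseudopodia libraries. Its partner ITGB1, named here after its values were seen, fell from 2698, 2578 and 2660.4 to 828, 981 and 583 CPM (-1.73), and the collagen receptor subunits ITGA1 and ITGA2 fell (-3.17 and -2.39). The genes of the plaque beneath integrins were 13 higher and 7 lower of 30, 6 and 13 on log2(TPM + 1). The tensins TNS1 (370.2 to 2860.3 CPM, 2.95) and TNS3 (2.45) rose most. Vinculin (VCL) fell from 566 ± 10.2 to 256 ± 25.2 CPM (-1.14), and LPP fell by 1.55 on the log2 scale. ITGB1 stood at -0.87, ITGA1 at -2.07, ITGA2 at -1.44, VCL at -0.48 and LPP at -0.41 after the GC and length correction.

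**Figure D3:**
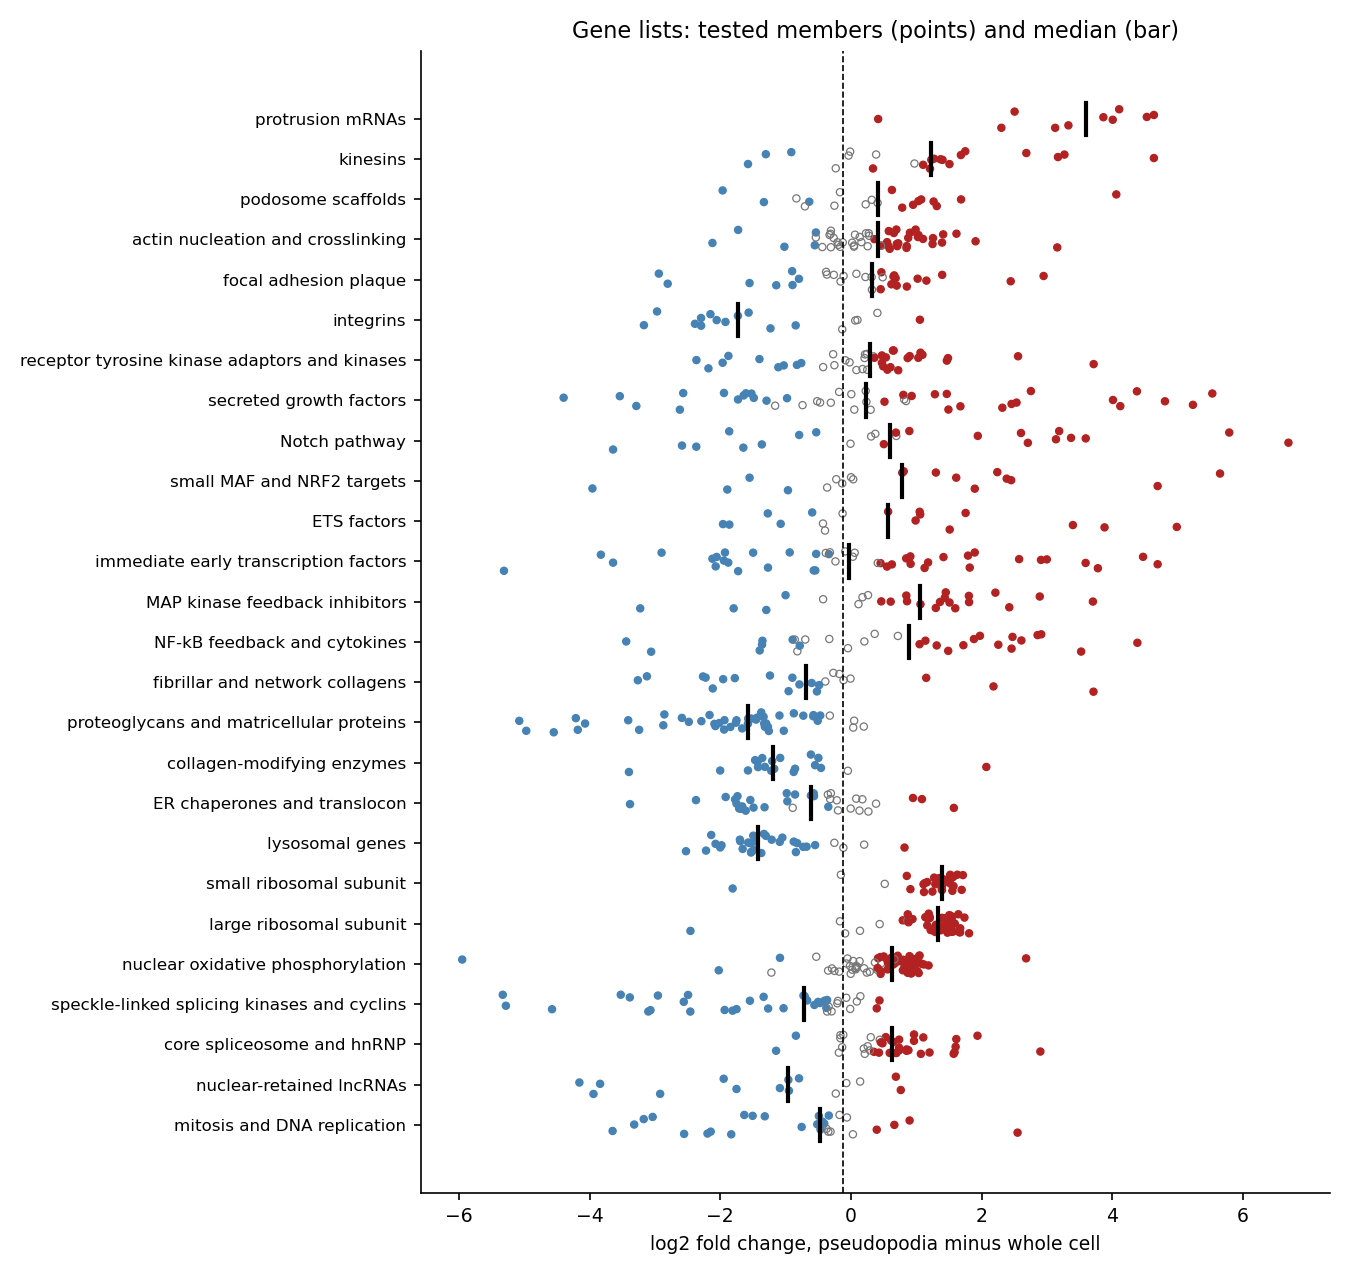
Log2 fold change, pseudopodia minus whole cell (x axis), of each tested member of 26 gene lists (rows); filled points were called and open points were not, and the black bar is the median of the list. The dashed line is the median of all genes, -0.12; the protrusion and ribosomal protein lists lie to its right and the matrix, lysosomal and integrin lists to its left.

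Downstream of the receptors, adaptors and kinases of receptor tyrosine kinase signalling were 19 higher and 9 lower of 40. They were 8 and 13 on log2(TPM + 1) and 28 and 7 after the GC and length correction. GAB2, a docking protein, had 542, 464 and 670.3 CPM in pseudopodia, 28.9, 41.7 and 40.9 in cell bodies and 44.1, 40.8 and 42.7 in whole cells (3.72 ± 0.190, adjusted p = 1.08e-07). PTPN11, the phosphatase SHP2 that binds GAB proteins, had 710.1, 1014 and 643 CPM in pseudopodia, 87.2, 115 and 94.3 in cell bodies and 138, 127 and 136 in whole cells (2.56). Both were high in pseudopodia alone. DDR2, a collagen-activated receptor kinase of the protrusion list, followed the same order (3445, 4601 and 2845 CPM in pseudopodia, 227, 318 and 309 in cell bodies and 434, 397 and 416 in whole cells), whereas the hepatocyte growth factor receptor MET and the kinase subunit PIK3R1 fell (-2.37 and -2.18). Growth factor ligands were 17 higher and 13 lower of 43, 15 and 20 on log2(TPM + 1) and 18 and 15 after that correction. With PGF and HBEGF, TGFB3 rose most (305, 372 and 496 CPM against 17.9, 19.3 and 19.2, 4.38), while TGFB2, a ligand of the same receptors, fell (-2.57). PIK3R1 stood at -1.35 and TGFB2 at -1.71 after the GC and length correction.

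In the sphingosine and lysophosphatidate pathways 4 genes rose and 8 fell of 16. The 4 that rose were S1PR5, the kinase SPHK1 that makes sphingosine 1-phosphate (2.86), the receptor LPAR1 (2.05) and S1PR2 (1.08). ENPP2, the enzyme autotaxin that makes lysophosphatidate, fell from 124 to 16.1 CPM (-2.94), and the phosphatase PLPP3 that degrades it fell by 2.44 on the log2 scale. Notch pathway genes were 12 higher and 8 lower of 24, and 7 each under a filter of 5 CPM in 3 libraries. Their summed CPM was 1537 ± 32.8 in pseudopodia against 1759 ± 37.5 in whole cell, opposite to the count. The targets HEYL, HEY1 (3.37) and HES4 (3.19) rose, but HES1, the best known Notch target, had 19.3, 16.9 and 11.6 CPM in pseudopodia, 29.8, 27.8 and 28.5 in cell bodies and 196, 207 and 195 in whole cells and fell (-3.64 ± 0.183, adjusted p = 9.76e-08). ENPP2 stood at -1.70 and HES4 at 2.38 after the GC and length correction.

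In each of 3 lists built around transcription factors, some with regulators or targets, a few members rose steeply. In the NFAT and calcineurin list 8 of 20 rose and 4 fell. These were 4 and 7 on log2(TPM + 1) and 10 and 4 after the GC and length correction. NFATC2 and NFATC1 (20.2 to 94.3 CPM, 2.23) led, and NFAT5, the osmotic stress member, fell (-1.66). Among small MAF factors and NRF2 targets 10 of 19 rose and 4 fell, 9 and 8 on log2(TPM + 1) and 13 and 5 after that correction. MAFK, MAFF and FTH1, the ferritin heavy chain (259 to 1419.9 CPM, 2.45), led, and the cystine transporter SLC7A11 fell (-1.89). Of 17 ETS factors 9 rose and 5 fell, 8 and 7 on log2(TPM + 1) and 11 and 5 after that correction. ETS1, ERG (3.88) and ETV3 (3.40) were the highest and ETV1 (-1.86) and GABPA (-1.96) the lowest. ETV1 stood at -0.94, GABPA at -0.85, NFAT5 at -0.61 and SLC7A11 at -0.39 after the GC and length correction.

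Early genes, which serum and growth factors induce without new protein synthesis, divided almost evenly, 19 higher and 18 lower of 44 (median -0.03). They were 15 and 23 on log2(TPM + 1) and again 19 and 18 after the GC and length correction. FOS had 51.3, 36.2 and 46.3 CPM in pseudopodia, 88.6, 78.5 and 67.7 in cell bodies and 1736, 1803 and 1776 in whole cells (-5.31 ± 0.180, adjusted p = 1.20e-08). EGR1 had 742, 533 and 698 CPM in pseudopodia, 989, 1156 and 706 in cell bodies and 2352, 2352 and 2551 in whole cells (-1.88 ± 0.189), and CCN1, a secreted matricellular protein, 93.9, 72.1 and 81.1 CPM in pseudopodia, 285, 223 and 195 in cell bodies and 1162, 1203 and 1146 in whole cells (-3.83). In all 3 the whole cells were above both scraped fractions. FOSL1, a partner of JUN like FOS, did the reverse: 476, 481 and 640.1 CPM in pseudopodia, 409.6, 561 and 428 in cell bodies and 37.7, 39.0 and 39.4 in whole cells (3.78 ± 0.177, adjusted p = 6.50e-08). The orphan receptor gene NR4A3 had 63.0, 57.9 and 31.7 CPM in pseudopodia, 87.2, 103 and 96.6 in cell bodies and 2.20, 2.49 and 2.18 in whole cells (4.47). Here both fractions were above the whole cells, and for NR4A3 the cell bodies were the highest.

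**Figure D4:**
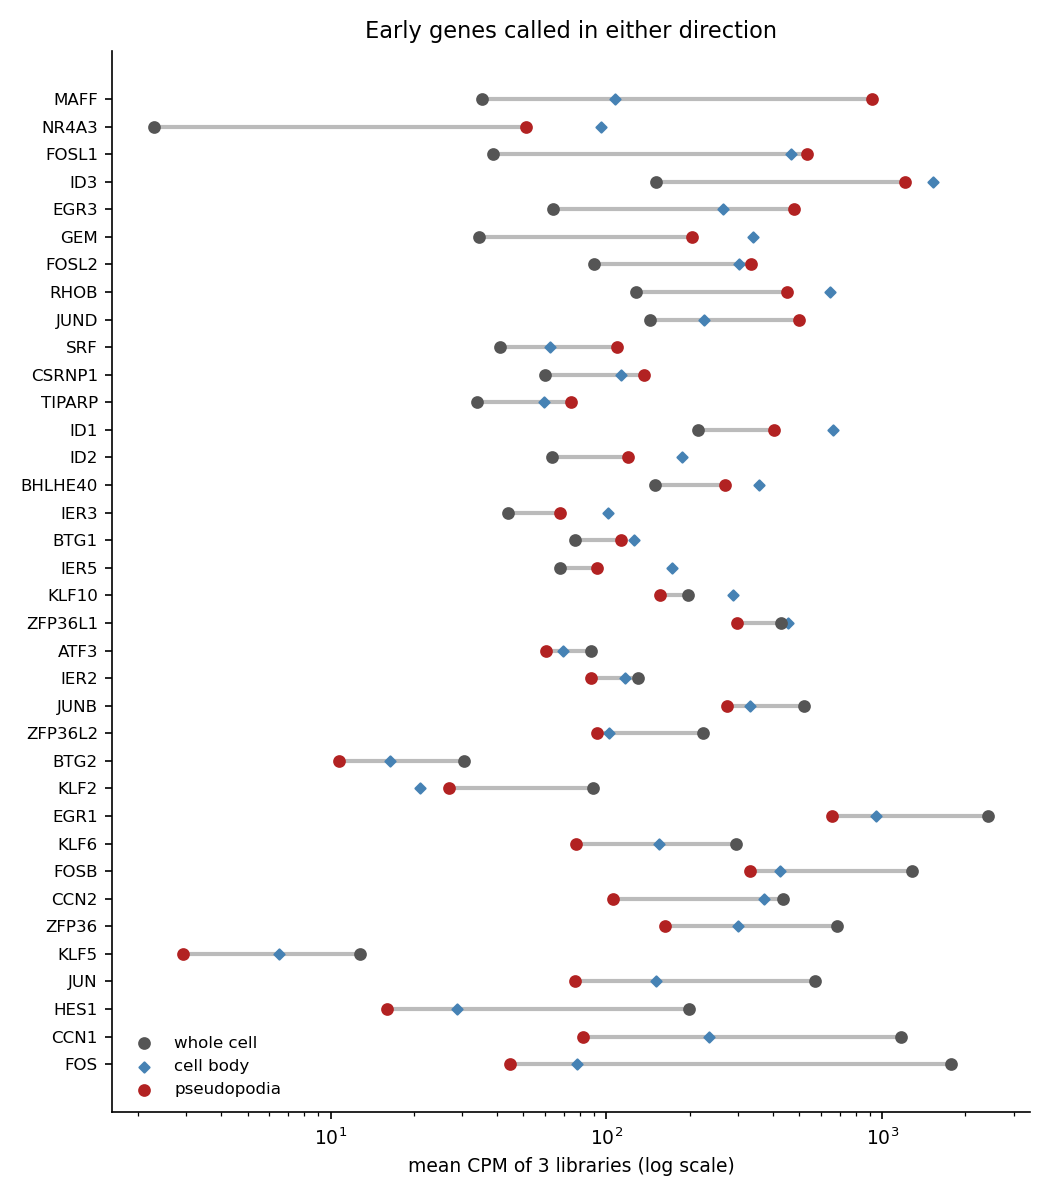
Mean CPM (x axis, log scale) of early transcription factor genes called in either direction with at least 10 CPM in pseudopodia or whole cell, 1 gene per row in the order of the log2 fold change. Each line joins whole cell (grey) and pseudopodia (red), with cell body (blue) as the side value, each the mean of 3 libraries; MAFF and NR4A3 head the rise and FOS the fall.

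Promoter letters were read to see whether the early genes that fell and rose differ in the motif best known from them. The CArG box, bound by serum response factor, was searched as CC, 6 bases each A or T, and GG, which reads alike on both strands, from 250 bases before to 50 after the start in RefSeq promoters (GRCh38.p14). It was in 1.29% of 35116 promoters, in 1.09% of the 12782 tested genes with a promoter and in 2 of 35 such early genes, EGR1 and SRF. The cyclic AMP response element TGACGTCA, the same on both strands, was in 1.85% of all promoters, in 3.01% of tested genes with one and in 2 of the 35, JUND and MAFF. These stretches carry the matches in capitals; SRF and JUND are named for the match.
EGR1 (chr5:138465349-138465418, plus strand): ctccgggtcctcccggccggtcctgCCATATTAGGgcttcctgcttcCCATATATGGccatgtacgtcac
SRF (chr6:43171209-43171278, plus strand): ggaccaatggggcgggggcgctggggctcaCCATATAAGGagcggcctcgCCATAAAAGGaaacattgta
MAFF (chr22:38201914-38201983, plus strand): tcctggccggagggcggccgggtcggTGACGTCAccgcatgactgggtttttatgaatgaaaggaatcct
EGR1 fell while SRF rose from 39.1, 41.0 and 42.8 to 104, 96.0 and 129 CPM (1.42), so a pair of CArG boxes stood in a promoter of each direction. JUND and MAFF both rose (1.79 and 4.70). A match describes the letters and is no evidence of binding, and no match says only that the letters are not in this window.

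Inhibitors that feed back on MAP kinase were 17 higher and 4 lower of 25 (median 1.06). ERRFI1, which blocks the EGF receptor, had 228, 241 and 217 CPM in pseudopodia, 232, 291 and 275 in cell bodies and 43.2, 43.3 and 41.4 in whole cells (2.42). SPRY2 (90.1, 68.4 and 70.8 CPM in pseudopodia, 149, 123 and 120.1 in cell bodies and 15.9, 16.8 and 16.8 in whole cells, 2.21) and the phosphatase gene DUSP5 (1.81) rose as well. Both fractions were above whole cell for ERRFI1 and SPRY2. The summed CPM of the list was 1815 in pseudopodia, 2496 in cell bodies and 1350 in whole cells. The early phosphatase DUSP1 fell, with 153, 115 and 160.4 against 488, 505 and 493 CPM (-1.80), as did SPRY1 (-3.23). NF-kB feedback genes and cytokines were 15 higher and 7 lower of 30, 15 and 13 on log2(TPM + 1) and 16 and 8 after the GC and length correction. IL11 (1.49 to 31.0 CPM, 4.39), NFKBIB (3.52) and IL1B (24.4 to 183, 2.91) rose, and NFKBIZ, an inducible member of the IkB family, fell from 141 to 13.0 (-3.44). Hypoxia-responsive genes were 7 and 7 of 25, or 28.0% each way against 27.9% higher and 33.1% lower among all genes. They were 11 and 7 after the GC and length correction, but 6 and 14 on log2(TPM + 1). As single genes, PFKFB3 (2.48) and HK2 (2.39) of glycolysis rose while ADM fell. Genes of the YAP and TEAD pathway were 7 and 9 of 22, 8 each after that correction and 6 and 12 on log2(TPM + 1): the factors TEAD4 (3.35) and WWTR1, which encodes TAZ (118 to 1085 CPM, 3.20), rose and the targets CCN1 and CCN2 (-2.06) fell. WWTR1 stood at 3.83 after the GC and length correction.

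The matrix lists fell with few exceptions. Of 47 proteoglycans and matricellular proteins 0 rose and 43 fell (median -1.58), and their summed CPM was 20695 ± 510.4 in pseudopodia, 66704 in cell bodies and 72001 ± 2076 in whole cells (SD, n = 3, two-sided exact permutation p = 0.1, the smallest that 3 against 3 allows). Without pseudopodia replicate 2 the count was 1 and 43. Besides FN1, VCAN and POSTN, ABI3BP had 9.07, 16.3 and 7.35 against 261, 240.3 and 265 CPM (-4.55). Of 22 collagens 3 rose and 14 fell. COL8A1 fell most among those with at least 10 CPM (-3.12), and the 3 that rose were COL5A3, a minor chain of collagen V (135, 128 and 134 CPM in whole cell and 1372, 1596 and 2253 in pseudopodia, 3.71), COL27A1 (2.18) and COL15A1 (1.15). COL5A3 stood at 3.05 after the GC and length correction.

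Enzymes that modify collagen were 1 higher and 18 lower of 20. The exception was CRTAP, a partner of the prolyl 3-hydroxylase complex (448, 470.4 and 445 CPM in whole cell and 1801, 1656 and 2279.7 in pseudopodia, 2.07). The crosslinking enzyme LOX fell, with 233, 307 and 66.1 CPM in pseudopodia, 1397, 979 and 1227 in cell bodies and 2180.3, 2095 and 2112 in whole cells (-3.40 ± 0.475, adjusted p = 2.45e-04), and replicate 3 lowest. Matrix proteases and their inhibitors were 5 higher and 18 lower of 31; ADAMTS4 (1.85) and PLAUR, the urokinase receptor (1.67), rose and MMP16 (-2.99) and ADAM10 (-2.37) fell. LOX stood at -2.64, MMP16 at -1.56 and ADAM10 at -1.17 after the GC and length correction.

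Among the organelles that make and recycle such proteins, the lists of the endoplasmic reticulum and the lysosome were mostly lower. Chaperones and the translocon of the endoplasmic reticulum were 3 higher and 20 lower of 35 (9 and 15 after the GC and length correction), with a summed CPM of 3933 ± 188 in pseudopodia, 8273 in cell bodies and 7059 ± 118 in whole cells. ERP44 (-1.92) and DNAJC3 (-2.37) fell, and SEC61B and SEC61G, the small translocon subunits, rose (1.09 and 0.95). Coat proteins and cargo receptors were 7 and 11 of 33, so that 33.3% were lower against 33.1% of all genes; the count turned to 16 and 9 after that correction and to 3 and 20 on log2(TPM + 1). The cargo receptors LMAN1 (70.6, 84.8 and 54.7 against 329.7, 308 and 316 CPM, -2.18) and MIA3, which exports collagen (-2.53), fell and the coat subunits COPZ2 (1.13) and SEC13 (0.99) rose. Lysosomal genes were 1 higher and 28 lower of 32 (median -1.42). LAMP2, a membrane protein of lysosomes, had 48.8, 45.8 and 33.8 CPM in pseudopodia, 233, 278 and 289.6 in cell bodies and 241, 247 and 251 in whole cells (-2.52 ± 0.159), so only the pseudopodia were low. The one that rose was the cholesterol exporter NPC1 (0.82). LMAN1 stood at -1.31, MIA3 at -1.61, LAMP2 at -1.35, ERP44 at -1.04, DNAJC3 at -1.59 and SEC61G at 2.20 after the GC and length correction.

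Genes of the cytosolic ribosome were the broadest rise. Of 32 genes of the small subunit 29 rose and 1 fell (median 1.39), and of 47 of the large subunit 41 rose and 1 fell (median 1.33), against 27.9% higher among all genes. The summed CPM of the large subunit was 48359.8 ± 3280.0 in pseudopodia, 30790.0 in cell bodies and 19109 ± 1145 in whole cells (SD, n = 3, exact permutation p = 0.1). RPL12 had 1921, 1738 and 2063 CPM in pseudopodia, 979.5, 867 and 917 in cell bodies and 517, 581 and 536 in whole cells (1.81 ± 0.121, adjusted p = 6.29e-07), with the 3 groups in steps. The pair that fell, RPS10 and RPL36A, had 0.664 and 1.29 CPM in whole cell and are uncertain, since near-identical copies and overlapping genes may share their reads. Translation factors were 19 higher and 4 lower of 36 (12 and 8 on log2(TPM + 1)): EIF4G1, the scaffold of the cap-binding complex (438 to 1764 CPM, 2.01), EIF4B (1.56) and EIF3B (1.54) led. EEF1A1, the elongation factor, had 15446, 13176 and 13658 CPM in pseudopodia and 8619, 8944 and 8782 in whole cell (0.68).

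Ribosomal protein mRNAs share a start that the comparison did not use, a terminal oligopyrimidine tract through which growth signals control their translation. The first 25 bases around the start are shown for the ribosomal protein genes with the highest fold changes that matched a promoter, and for EEF1A1: 5 bases before the start, then 20 from it, with the unbroken run of C and T from the start in capitals (RefSeq, GRCh38.p14).
RPS12 (chr6:132814564-132814588, plus strand): gaggcCTCTTTCCCTgccgccgccg
RPS19 (chr19:41860250-41860274, plus strand): tcgttCCCTTTCCCCTggctggcag
RPL12 (chr9:127451387-127451411, minus strand): tccggCCTCTCggctttcggctcgg
RPLP1 (chr15:69452813-69452837, plus strand): gagagCCCCTTTCCTCagctgccgc
RPL13 (chr16:89560652-89560676, plus strand): tcatcCCagagtgcattgcggggcc
EEF1A1 (chr6:73521013-73521037, minus strand): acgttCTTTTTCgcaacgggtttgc
A start with C followed by 4 bases each C or T, on the gene's own strand, was in 4.07% of all promoters. It was in 5.16% of tested genes with a promoter and in 43 of 63 ribosomal protein genes with one. RPL13 lacks it at the start RefSeq gives. Of the 43 with it 38 rose and 2 fell (median 1.43), and of the 20 without it 18 rose and 0 fell (median 1.28). Among 616 other genes with such a start 30.8% rose and 28.2% fell, and among 12103 without it 29.5% and 32.7%. Outside the ribosome genes the share that rose was therefore close to that of genes without the tract.

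Mitochondrially encoded mRNAs took 65329 ± 1119 CPM in all in pseudopodia, 28491 in cell bodies and 42852 ± 2786 in whole cells, and 6 of 13 rose with 0 lower, which turned to 1 and 4 on log2(TPM + 1). MT-CO1, a subunit of cytochrome oxidase, had 29744, 30169.6 and 33973 CPM against 16955, 17811 and 18619 (0.81). Nuclear genes of oxidative phosphorylation were 46 higher and 3 lower of 74 (25 and 13 on log2(TPM + 1)), led by NDUFV3 (28.8 to 185 CPM, 2.68) and COX4I1 (1.19). Mitochondrial ribosomal proteins were 44 and 9 of 76, then 19 and 20 on log2(TPM + 1) and 54 and 3 after the GC and length correction. In the same order, proteasome genes were 18 and 2 of 31, then 5 and 8 and then 25 and 1. Aminoacyl-tRNA synthetases were 8 and 2 of 20, then 2 and 9 and then 11 and 4. Glycolytic enzymes were 8 and 4 of 20, then 5 and 6 and then 8 and 6. Cytosolic heat shock proteins were 12 and 4 of 21, then 8 and 9 and then 12 and 4. GAPDH had 2647, 2196 and 3340.3 CPM in pseudopodia and 1437, 1519.8 and 1471 in whole cell (0.89). Cholesterol synthesis was split, 7 and 6 of 22, or 31.8% and 27.3% against 27.9% and 33.1% of all genes. It was 5 and 10 on log2(TPM + 1) and 11 and 4 after the GC and length correction. In these nuclear lists the summed CPM of cell bodies was near or above that of pseudopodia. In pseudopodia, cell bodies and whole cells it was 4065, 3744 and 2544 for oxidative phosphorylation and 1771, 1752 and 1276 for mitochondrial ribosomal proteins. It was 2174, 2388 and 1559 for the proteasome, 2585, 2851 and 2318 for synthetases and 907, 1337 and 783 for cholesterol synthesis. Glycolysis had 6855, 6895 and 4808 and heat shock proteins 4761, 5205 and 3587.

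The list drawn up for RNAs retained in the nucleus, not all of which are nuclear, was mostly lower, 2 higher and 10 lower of 15. MEG3 had 14.7, 14.7 and 18.8 CPM in pseudopodia, 139, 168 and 163 in cell bodies and 294, 275 and 292 in whole cells (-4.16 ± 0.153, adjusted p = 1.64e-08). NEAT1, the RNA of paraspeckles, had 132, 123 and 131 CPM in pseudopodia, 106, 126 and 139 in cell bodies and 429, 431 and 437 in whole cells (-1.75), with both fractions alike. The members that rose were the cytoplasmic NORAD (576, 608 and 697 CPM in pseudopodia and 383, 354 and 370.5 in whole cell, 0.76) and OIP5-AS1 (0.69). MALAT1, an abundant nuclear RNA in most cells, was counted at 3.42, 3.57 and 4.05 CPM in whole cell and 0.159, 0.367 and 0.174 in pseudopodia (-3.94). These counts were very low in all groups for so abundant an RNA, how reads were assigned to genes is not given in the sources used here, and its part in the value was not tested. Host genes of small nucleolar RNAs were 11 higher and 3 lower of 17 (7 and 4 on log2(TPM + 1)): SNHG15 (1.77) and SNHG17 (1.29) rose, SNHG1 (-1.03) and SNHG3 (-1.15) fell. MALAT1 stood at -2.96, NEAT1 at -0.90, NORAD at 1.46, OIP5-AS1 at 1.98 and SNHG1 at -0.44 after the GC and length correction.

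The lists of the splicing machinery, chosen with earlier results of these data known, divided by kind. Cyclins, kinases and SR-related proteins of nuclear speckles, whose transcripts are known to keep introns in the nucleus, were 2 higher and 27 lower of 38 (median -0.72; 7 and 20 after the GC and length correction). RSRP1 had 3.44, 4.24 and 1.91 CPM in pseudopodia and 78.3, 75.9 and 75.8 in whole cell (-4.58). Core spliceosome and hnRNP genes were 27 higher and 2 lower of 40 (median 0.63; 15 and 8 on log2(TPM + 1)), with HNRNPA1 rising from 475 ± 16.0 to 1821 ± 125 CPM (1.94). Chromatin remodellers and DNA methylation genes were 21 and 5 of 34, led by TET3 (3.21), CHD3 (342 to 2385 CPM, 2.80) and CHD2 (2.65). Histone lysine methylases and demethylases were 24 and 0 of 36, led by the demethylase gene KDM6B (65.5 to 475 CPM, 2.86). On log2(TPM + 1) these lists were 16 and 8 and 16 and 6, and after the GC and length correction 23 and 3 and 28 and 1. Zinc finger genes with ZNF symbols were mostly lower, 76 and 275 of 461 (median -0.95; 44 and 338 on log2(TPM + 1)), though ZNF469 (28.7 to 363 CPM, 3.66), ZNF707 (3.47) and ZNF316 (3.32) rose by more than 8-fold. The summed CPM of the ZNF list was 6683 ± 644 in pseudopodia against 5621 ± 95.0 in whole cell, opposite to its count. KDM6B stood at 2.21 and ZNF316 at 2.67 after the GC and length correction.

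Genes of mitosis and DNA replication were 4 higher and 18 lower of 29. TOP2A had 2.33, 5.49 and 3.32 CPM in pseudopodia, 6.46, 18.9 and 4.49 in cell bodies and 49.5, 44.7 and 45.7 in whole cells (-3.65) and MKI67 4.07, 6.81 and 8.56 CPM in pseudopodia, 5.07, 23.0 and 3.48 in cell bodies and 54.3, 50.5 and 54.3 in whole cells (-3.04). For both, cell body replicate 2 stood above the other 2 libraries of its group. The G1 cyclin CCND1 rose from 189, 179 and 189 to 937, 1038 and 1294 CPM (2.55). With it the summed CPM of the list was 1405 ± 182 in pseudopodia against 696 ± 7.41 in whole cell, opposite to its count. Interferon response genes were 7 higher and 17 lower of 29; IRF1 (0.91) and ISG15 (0.87) rose and IFIT1 (-2.35) and IFIT3 (-1.89) fell. TOP2A stood at -2.75 after the GC and length correction.

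Markers of other cell types were measured beside these results. Of 10 haematopoietic markers 4 passed the expression filter, and PTPRC, the leucocyte antigen CD45, was at 0.311 CPM in whole cell and 0.0984 in pseudopodia. Their summed CPM was 72.9 ± 7.79 in pseudopodia and 68.0 ± 1.38 in whole cell, nearly all of it from CD34 (69.2 and 65.1), named after its values were seen. CD14 rose (0.57, not called without whole cell replicate 3) and PTPRC fell (-1.65), but neither was called after the GC and length correction (0.26 and -0.62) or on log2(TPM + 1). CD34 itself was not called (0.09), but was higher after the correction (0.62) and lower on log2(TPM + 1) (-0.37). Endothelial markers were 3 higher and 4 lower of 9 and 3 each after the GC and length correction, with a summed CPM of 106 ± 12.2 in pseudopodia and 83.2 ± 1.11 in whole cell; VWF rose from 1.32 ± 0.232 to 14.6 ± 6.30 CPM and CDH5 fell (-2.39). Epithelial markers were 3 and 0 of 6 and 1 and 1 on log2(TPM + 1), with summed CPM of 335 ± 59.9 and 172 ± 8.22, most of it from KRT8 and KRT18. Adipocyte markers were 3 and 3 of 6 (31.4 ± 1.20 and 12.9 ± 0.519 CPM), osteoblast and chondrocyte markers 1 and 6 of 9 (211 ± 18.5 and 949.7 ± 8.63), and smooth muscle and contractile markers 7 and 1 of 11 (3540.2 ± 449 and 2445 ± 91.7). The part of other cell types in the differences was not tested.

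Across all genes the direction of the call followed GC content. Among protein-coding genes in 5 equal groups by GC content, in the lowest group 7.44% were higher and 56.2% lower, and in the highest 49.2% and 16.9%. With that correction applied the same groups held 33.7% and 28.2%, and 36.3% and 33.2%. Across 18675 genes of all types the log2 fold change correlated with GC content at Pearson r = 0.31 and with log transcript length at 0.04. This is a description over genes that share the same libraries. Of 5 equal groups of protein-coding genes by length the shortest transcripts held 42.8% higher and the longest 26.4%. With the correction these were 43.7% and 41.8%. By type, 31.2% of protein-coding genes were higher and 32.4% lower, 16.1% and 38.0% of long non-coding RNAs, and 30.3% and 23.3% of pseudogenes. The part of GC content in single genes was not tested beyond the correction, under which each list above kept its majority except where stated.

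**Figure D5:**
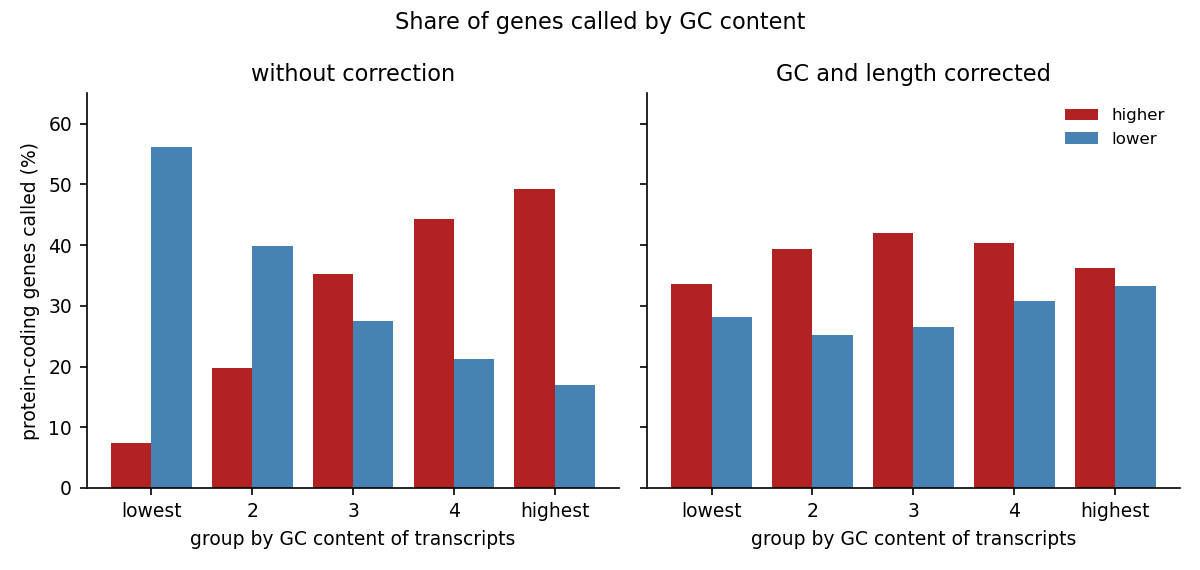
Share of protein-coding genes called higher (red) and lower (blue) in pseudopodia (y axis, percent) in 5 equal groups by GC content of their transcripts (x axis, lowest to highest), from the fit without that correction (left) and after the GC and length correction (right). The share called higher climbs from 7.44% to 49.2% on the left and runs from 33.7% to 36.3% on the right.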

How the data were processed

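RNA of 9 libraries was measured by RNA sequencing with a kit for low input (NEBNext), 3 each from pseudopodia, cell body and whole cell, grouped by label. The authors deposited raw counts per gene made with featureCounts, per the labels, and TPM, a share of transcripts scaled for gene length, per library, per the file headers. GRCh38 and DESeq2 are named in the submitters' processing notes; the aligner, gene annotation, strand setting and each version: not given in the sources used here. Without a strand setting, reads of a gene and an overlapping or antisense partner cannot be told apart, and near-identical copies may share reads. The kit amplifies cDNA, so counts are not independent molecules.

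The table held 62709 genes with values, 37196 of them with a count, and 1 row without values was left out. Symbols came from the deposited files for 28809 of the IDs and otherwise from a table of gene names. Counts were fitted for the 19426 genes that passed edgeR's expression filter (filterByExpr) in 1 quasi-likelihood model of all 9 libraries with TMM factors and robust spread (edgeR 4.0.16, R 4.3.3). A gene was called at a Benjamini-Hochberg adjusted p under 0.05 over all genes tested. CPM are counts scaled to a common library total and TMM factor. Errors of CPM are SDs of 3 libraries and those of log2 fold changes are SEs from the test statistic. Sums and shares were compared by exact permutation, which cannot go below p = 0.1 here.

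Genes were named by rule. These were the 12 highest and 12 lowest called fold changes with at least 20 CPM in the higher group and groups that did not overlap. To them came the 10 largest gains and losses in CPM and up to 3 called members per list and direction with at least 10 CPM. Some members that account for a count of 5 or fewer, and anchors such as ACTB and VIM, were added. The few members called lower among translation factors, oxidative phosphorylation and proteasome genes are not named. The lowest log2 fold changes of these lists were -4.42, -5.95 and -4.37. Exceptions are stated beside the gene. The comparison, the 55 gene lists and the anchors were chosen with earlier results of these data known. XIST and genes of chromosome Y stayed in the fit and are not reported here. Alternatives were other scaling factors and filters, DESeq2 1.42.0, limma 3.58.1 on weighted counts and on log2(TPM + 1) or log2(TPM + 0.1), the 6 libraries alone, a replicate block, each library left out and loess offsets (span 0.4) on GC content and length, which GENCODE release 29 gave for 18675 of the genes tested, 96.1%.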

Additional observations from a re-analysis of the deposited data

How the results depend on the processing

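Under 20 alternatives the count of higher genes ran from 3203 to 7104 and that of lower genes from 3805 to 9686, against 5412 and 6430. Counts moved by over 1.5 times on log2(TPM + 1), to 3229 higher and 9686 lower, on log2(TPM + 0.1), to 3203 higher, and with at least 5 CPM in 3 libraries, to 3805 lower among 10917 genes tested. Leaving out 1 library gave 4747 to 5696 higher and 5440 to 6978 lower genes. Voom with group weights, chosen after seeing the data, gave 5086 and 6022. TPM was scaled by 1 constant per library without TMM factors, as said above. The parts of scaling, filter and test in these shifts were not tested.

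Same-numbered pseudopodia and whole cell libraries did not deviate together (Pearson r of -0.04, -0.04 and -0.0025 across genes). The labels do not say whether same-numbered libraries share a culture. With 3 libraries a group and a spread of only 5.08% among whole cells, these values cannot decide it. A replicate block gave 5131 higher and 6363 lower genes, and 6419 and 5567 together with the GC and length correction. No pseudopodia library correlated best with its own number.

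The 199 genes named in the text gave 3967 results, each gene under each of the 20 alternatives that tested it. Of these, 3903 kept their direction and their side of the threshold, 39 lost the call, 11 gained it and 14 changed sign. Any such change was limited to 19 of the genes. ACTB turned to -0.0074 under upper-quartile factors, -0.082 with at least 5 CPM, -0.42 on both log2(TPM + 1) and log2(TPM + 0.1), -0.14 after the GC and length correction with and without the replicate block, and ran from -0.066 to 0.157 without 1 library, below 0 without pseudopodia replicate 3. VIM turned to 0.040 under voom with sample weights and ran from -0.45 to 0.023 without 1 library, above 0 without the same one. CD34 turned to -0.030 with at least 5 CPM, -0.37 on log2(TPM + 1) and -0.38 on log2(TPM + 0.1). CYB5R3 turned to -0.060 on log2(TPM + 1) and -0.061 on log2(TPM + 0.1). Calls of CPEB4, EEF1A1, KRT8, OIP5-AS1, NPC1 and NORAD were lost on log2(TPM + 1), those of KIF3A, COL1A2 and NFAT5 after the GC and length correction, that of SNHG1 with the block added to it, that of RPS10 under group weights, that of COL1A1 without whole cell replicate 1, and that of CYB5R3 under upper-quartile factors, the correction and without whole cell replicate 1 or 3. CD14 was lost under 6 alternatives, and PTPRC, near the filter, was lost under 7 of the 19 that tested it. Low counts, a wide spread among pseudopodia and 3 libraries a group limit what could be detected.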

Other observations

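Some genes were close to absent from one group and plain in the other, a description of levels by a limit chosen after the data were seen. 12 genes were under 1 CPM in whole cell and over 10 CPM in pseudopodia. Besides NFATC2, HEYL, IL21R, DCLK3 and LINC00511 these included XIRP1, an actin-binding protein of muscle, with 15.2, 16.7 and 24.1 CPM in pseudopodia, 26.5, 42.7 and 39.7 in cell body and 0.0653, 0.0729 and 0.0968 in whole cell, and FOXS1, a forkhead transcription factor, with 13.6, 14.9 and 19.9 CPM in pseudopodia, 15.3, 19.2 and 18.8 in cell bodies and 0.0653, 0.0583 and 0.0646 in whole cells. CLDN14, which encodes a tight junction claudin, had 14.5, 14.9 and 21.7 CPM in pseudopodia, 26.5, 25.3 and 27.6 in cell bodies and 0.272, 0.467 and 0.323 in whole cells. In these 3 genes the cell body was as high as the pseudopodia or higher. ASPHD1 and AKAP13-AS1 had 15.7 and 10.8 CPM in pseudopodia but 1.35 and 1.23 in cell bodies, nearer to the 0.858 and 0.232 in whole cell.

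In the other direction 18 genes were under 1 CPM in pseudopodia and over 10 CPM in whole cell. They included MIAT, a nuclear long non-coding RNA (0.664, 0.870 and 1.35 CPM in pseudopodia and 15.3, 13.8 and 12.9 in whole cell), RNPC3, a protein of the minor spliceosome (0.462, 0.734 and 0.270 and 11.5, 9.27 and 10.4), the zinc finger genes ZNF117, ZNF721 and ZNF518A, and the mitotic genes ASPM, DLGAP5 and KNL1. MIAT had 7.96 CPM in cell body, nearer to whole cell, while KNL1 had 1.20, nearer to the 0.910 in pseudopodia than to the 10.6 in whole cell. Overlapping and antisense genes such as AKAP13-AS1 are uncertain without a strand setting.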
